A study of Homo sapiens with 16 samples.

Results

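The genes described here encode the enzymes that make, recycle and consume S-adenosylmethionine (SAM), the methyl donor of the cell, and that divert it into polyamines. They are the 10 genes MTR, MAT2A, MAT2B, AHCY, AMD1, ODC1, SRM, SMS, SAT1 and MTAP, taken by gene symbol from a table of 60669 genes, and all 10 were found. The rule that selects them is a list of names, drawn up with earlier results of these data known. Expression was measured by RNA sequencing in the human cell line MOLM-13, which derives from an acute myeloid leukaemia, treated for 4 days. The groups were the combination of an EZH2 inhibitor and a PRMT5 inhibitor at 1 µM each, the PRMT5 inhibitor alone (PRMT5i) at 1 µM, the EZH2 inhibitor alone (EZH2i) at 1 µM, and vehicle (DMSO) at 0.005%, with 4 libraries in each. All groups are cells of this line with no further modification named in the labels, grown in serum-supplemented RPMI medium, and the labels name neither compound. Nothing in the sources used here says that the 4 libraries of a group came from separate cultures, so p-values measure only the spread between these libraries.

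Methionine adenosyltransferase joins methionine to ATP to give SAM, and methyltransferases such as EZH2 and PRMT5 pass its methyl group to histones and other proteins, leaving S-adenosylhomocysteine. That product is hydrolysed to homocysteine, which is either remethylated to methionine or sent into transsulfuration. A separate branch decarboxylates SAM and uses the propylamine group to build spermidine and spermine from putrescine, releasing methylthioadenosine (MTA), which MTAP returns to methionine. MTA that accumulates where MTAP is missing competes with SAM at PRMT5, which is why the state of MTAP is of interest in cells given PRMT5 inhibitors.

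In PRMT5i cells 4 of the 10 genes were lower than in DMSO cells: ODC1, MTR, SAT1 and SMS, and none was higher. Of the 16555 genes tested, 35.3% were called in that comparison, 18.3% lower and 17.1% higher. In combination cells ODC1, MTR and SAT1 were lower than in DMSO cells, 3 of 10, where 18.5% of tested genes were called lower, 17.6% higher and 36.2% in either direction. In EZH2i cells only SAT1 was lower, 1 of 10, where 3.49% of tested genes were called lower, 4.11% higher and 7.60% in either direction. Between the combination and PRMT5i, MTR alone was higher, 1 of 10, against 4.16% of tested genes called, 2.91% higher and 1.24% lower. Between the combination and EZH2i, MTR, SMS, AHCY and ODC1 were lower, 4 of 10, against 28.0% of tested genes called, 14.6% lower and 13.4% higher. A gene was called where its adjusted p was below 0.05, and the comparisons against DMSO share the same 4 DMSO libraries.

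A count that needs no model is that of genes whose CPM (the count as a share of the TMM-scaled library size) did not overlap between groups. With PRMT5i against DMSO 4 of 10 genes lay wholly lower, where 33.8% of tested genes did not overlap, 16.6% higher and 17.2% lower. With the combination against DMSO 3 lay wholly lower, where 33.1% did not overlap, 16.7% higher and 16.4% lower. With EZH2i against DMSO 0 of 10 were apart, where 10.6% did not overlap, 5.48% higher and 5.10% lower. Between the combination and PRMT5i MTR, ODC1 and SMS lay wholly higher and MAT2B wholly lower, 4 of 10, where 18.9% did not overlap, 10.2% higher and 8.79% lower. Between the combination and EZH2i 6 lay wholly lower, the 4 that were called and MAT2A and SAT1, where 31.6% did not overlap, 15.9% higher and 15.6% lower.

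The median log2 fold change of the 10 genes was -0.27 with PRMT5i against DMSO, where that of all tested genes was -0.003. It was -0.19 with the combination against DMSO, where all tested genes had 0.002, and -0.06 with EZH2i against DMSO, where all tested genes had -0.005. The number called depended on DMSO replicate 2. Without that library 7 genes passed with PRMT5i, 7 with the combination and 6 with EZH2i, each against DMSO. Over all tested genes the calls without it were 6853 with PRMT5i, 7110 with the combination and 4591 with EZH2i, where they were 5847, 5990 and 1259 with all libraries. Without DMSO replicate 4 none of the 10 passed with EZH2i, and 499 of all tested genes did. The calls of ODC1, MTR and SAT1 with PRMT5i and with the combination against DMSO were made under all 27 alternative settings, described at the end.

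**Figure D1:**
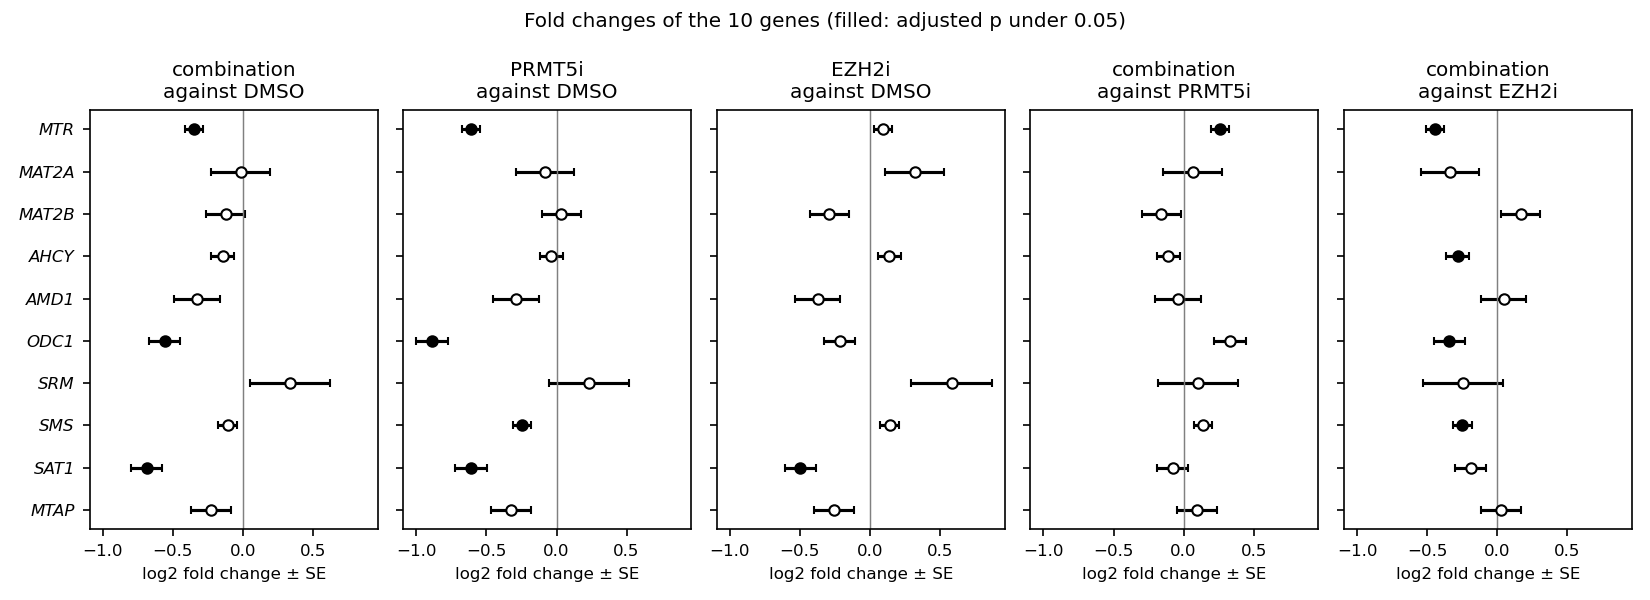
Log2 fold changes (horizontal axis) of the 10 genes in 5 comparisons, with the standard error as a bar; filled points passed an adjusted p of 0.05. ODC1, MTR and SAT1 are filled in both panels with PRMT5 inhibited against DMSO, and the bars of SRM and MAT2A are the longest.

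Fewer cells of a kind and less RNA per cell cannot be told apart in these bulk libraries. Depth was 31.1 M to 52.9 M expected counts per library (M for mega), and the counts of the 10 genes ran between 722 (SRM in DMSO replicate 1) and 16712 (AHCY in EZH2i replicate 2). All 10 myeloid leukaemia markers examined were above the filter on low counts, and their summed level was 2405 to 2610 CPM in combination, 2769 to 3099.7 in PRMT5i, 1726 to 1947 in EZH2i and 1804 to 2543 in DMSO libraries, so that all PRMT5i libraries lay above all DMSO libraries. Of the 5 T cell markers TRAC and CD3D were above the filter and CD2 had 0 counts in all 16 libraries; their sum was 26.7 to 29.1 CPM in combination, 16.8 to 20.7 in PRMT5i, 37.9 to 45.9 in EZH2i and 26.0 to 37.6 in DMSO libraries. Of the 5 epithelial and fibroblast markers KRT8, COL1A1 and COL1A2 were above the filter and CDH1 had 0 counts in all 16 libraries; their sum was 4.06 to 6.34 CPM in combination, 3.28 to 3.58 in PRMT5i, 3.27 to 6.93 in EZH2i and 1.70 to 2.96 in DMSO libraries, with every DMSO library below all others. The 4 B cell markers summed to at most 1.33 CPM and the 5 erythroid markers to at most 0.321 CPM. The part of these marker differences in the results was not tested. Libraries also differed in how their counts depended on the GC content of genes. That trend, in log2 units per 10% GC, was -0.22 in DMSO replicate 1, 0.26 in DMSO replicate 2 and 0.29 in EZH2i replicate 1, and lay between -0.14 and 0.14 in the other 13. Mitochondrial genes took 1.70% of the counts of DMSO replicate 1 and 0.213% to 0.792% of those of the others, and its TMM factor, 0.861, was the smallest. EZH2 mRNA was lower in PRMT5i cells (24.8 ± 1.36 CPM) than in DMSO cells (37.6 ± 10.7, SD, n = 4 each; adjusted p = 0.00659), while PRMT5 mRNA averaged 119 ± 3.35 CPM in PRMT5i cells and 116 ± 10.3 CPM in DMSO cells. The EZH2 groups overlapped. These mRNA levels do not check that an inhibitor acted on its enzyme.

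Levels between genes were compared as CPM divided by the length of the principal transcript in kilobases (CPM per kb). AHCY was the most abundant of the 10 in all 4 groups, with 134 ± 7.60 CPM per kb in combination, 144 ± 6.44 in PRMT5i, 163 ± 10.6 in EZH2i and 148 ± 14.6 in DMSO cells (SD, n = 4). In DMSO cells ODC1 (81.0 ± 16.9) and AMD1 (77.5 ± 20.6) followed and did not differ from each other beyond their spread. MAT2B (55.8 ± 12.1), SAT1 (55.7 ± 10.7), MAT2A (50.7 ± 20.5), SMS (41.5 ± 1.46) and SRM (35.3 ± 19.8) formed a middle range in which neighbours overlapped. MTR (10.5 ± 0.37) and MTAP (8.93 ± 2.08) were the lowest and overlapped in DMSO cells. In PRMT5i cells ODC1 stood at 43.7 ± 3.08 CPM per kb, the fifth of the 10, and in combination cells at 55.0 ± 1.48, the third.

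**Figure D2:**
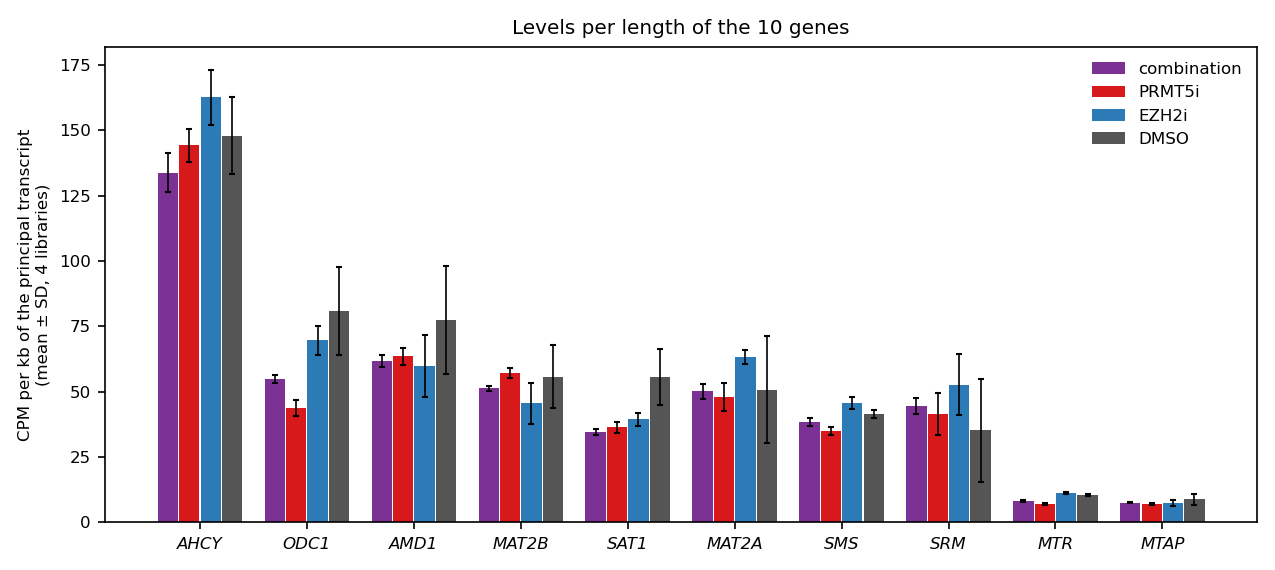
Mean level of each gene in CPM per kb of its principal transcript (bars, vertical axis from 0) with the SD of 4 libraries, for the combination, PRMT5i, EZH2i and DMSO. AHCY stands above 130 CPM per kb in every group, and MTR and MTAP stay near or below 11.

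The enzymes of the methionine cycle start with MTR, methionine synthase, which uses a folate methyl group and vitamin B12 to remake methionine from homocysteine. MTR lies on chromosome 1 (236795281 to 236903981, plus strand; GRCh38, GENCODE release 29, as for all gene positions here). Its CPM in order of replicate number was 83.8, 89.2, 84.1 and 90.5 in combination, 69.6, 77.8, 71.2 and 72.1 in PRMT5i, 113, 116, 121 and 122 in EZH2i, and 107, 115, 108 and 113 in DMSO cells. All PRMT5i and all combination libraries were below all DMSO and EZH2i libraries, and the EZH2i and DMSO libraries overlapped. Relative to DMSO the log2 fold change was -0.61 (SE 0.06, adjusted p = 1.51e-06) with PRMT5i and -0.35 (SE 0.06, adjusted p = 0.000421) with the combination. With the combination MTR was higher than with PRMT5i in all 4 libraries, by 0.26 (SE 0.06, adjusted p = 0.0295), and lower than with EZH2i, by -0.44 (SE 0.06, adjusted p = 6.19e-05). The call against PRMT5i was lost with no filter on low counts (adjusted p = 0.268) and without any of combination replicates 1, 2 and 4 or PRMT5i replicates 1, 3 and 4 (adjusted p 0.0576 to 0.107), while the fold change stayed between 0.23 and 0.33 over 27 alternatives. 

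MAT2A, the catalytic subunit that makes SAM outside the liver, lies on chromosome 2 (85539165 to 85545280, plus strand). Its mRNA carries hairpins in the 3′ UTR that the RNA methyltransferase METTL16 binds. When SAM is scarce, binding to at least 1 of them promotes splicing of a retained intron. The motif TACAGAGAA of those hairpins occurred 5 times in the 1508-base 3′ UTR of the principal transcript. Of 3545 genes with a 3′ UTR within 20% of that length 1.38% held at least 1 copy, and MAT2A alone held 5. Because the motif is that of the MAT2A hairpins, this comparison shows only that it was rare in other genes. The sites are shown because they are where the SAM sensor meets this mRNA; each is given with its motif in capitals, 5′ to 3′ on the plus strand of GRCh38 (GENCODE release 29).
MAT2A site 1: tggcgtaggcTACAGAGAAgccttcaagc
MAT2A site 2: tgtgatgtcaTACAGAGAAgtcacagggc
MAT2A site 3: ctggtgtagcTACAGAGAAaccagcttcc
MAT2A site 4: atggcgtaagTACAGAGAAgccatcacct
MAT2A site 5: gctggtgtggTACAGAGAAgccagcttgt
The 5 windows lie at chr2:85543802-85543830, chr2:85544589-85544617, chr2:85544774-85544802, chr2:85544889-85544917 and chr2:85545112-85545140.

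MAT2A had 151, 145, 134 and 135 CPM in combination, 114, 136, 142 and 149 in PRMT5i, 185, 173, 185 and 170.4 in EZH2i, and 68.6, 209, 151 and 143 in DMSO libraries. The EZH2i libraries all lay above the combination and PRMT5i libraries, and the DMSO libraries spanned the whole range of the other groups. No comparison passed the threshold. The log2 fold change against DMSO was -0.08 (SE 0.21, adjusted p = 0.798) with PRMT5i, -0.02 (SE 0.21, adjusted p = 0.961) with the combination and 0.32 (SE 0.21, adjusted p = 0.337) with EZH2i. These values depended on single DMSO libraries. Without DMSO replicate 1 the change with PRMT5i was -0.32 (adjusted p = 0.0334), and without DMSO replicate 2 the change with EZH2i was 0.56 (adjusted p = 0.0337). With the combination against EZH2i, where MAT2A did not overlap, the change of -0.34 (SE 0.21, adjusted p = 0.259) had an adjusted p of 0.00497 when only those groups were fitted and 0.0134 without DMSO replicate 1. That change passed under 4 of 27 alternatives, and the adjusted p reached 0.384 in the others. METTL16 itself was higher with PRMT5i (56.4 ± 2.15 CPM) than in DMSO (42.4 ± 11.5 CPM, SD, n = 4 each), by 0.41 (SE 0.15, adjusted p = 0.0396). That call was lost without any 1 of the 4 PRMT5i libraries or without DMSO replicate 4 (adjusted p 0.0539 to 0.0905). It was also lost with total-count scaling (adjusted p = 0.0646) and when only PRMT5i and DMSO were fitted (0.133). DMSO replicate 1, which had the lowest MAT2A value, also had the lowest METTL16 value, 25.9 CPM. The opposite-strand gene GGCX shares 12.4% of the exon bases of MAT2A, and without knowledge of strand their reads cannot be told apart there.

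MAT2B, the regulatory subunit of the same enzyme (chromosome 5, 163503114 to 163519336, plus strand), had 108, 110.3, 105 and 108 CPM in combination, 121, 119.9, 115 and 126 in PRMT5i, 77.0, 109, 87.6 and 111 in EZH2i, and 136, 79.7, 126 and 128 in DMSO libraries. All combination libraries were below all PRMT5i libraries, by -0.16 (SE 0.14, adjusted p = 0.680), the EZH2i libraries also lay below the PRMT5i libraries, and every group overlapped with DMSO. No comparison of MAT2B passed, although without DMSO replicate 2 the change with EZH2i was -0.44 (adjusted p = 0.0063) and that with the combination -0.27 (adjusted p = 0.0405), each against DMSO. These MAT2B changes passed under 3 and 2 of 27 alternatives. AHCY, which hydrolyses S-adenosylhomocysteine and so relieves the product inhibition of methyltransferases, lies on chromosome 20 (34280268 to 34311802, minus strand). It had 285, 265, 296 and 302 CPM in combination, 304, 296, 329 and 308 in PRMT5i, 374, 336, 360.5 and 324 in EZH2i, and 273, 346, 325 and 326 in DMSO libraries. Only the combination and EZH2i libraries, and no other pair of groups, were apart for AHCY. The difference was -0.28 (SE 0.08, adjusted p = 0.0170), and the call was lost with total-count scaling (adjusted p = 0.0715), with no filter (0.0813), and without combination replicate 2 (0.0593) or EZH2i replicate 1 (0.0512). Without DMSO replicate 1 AHCY was also lower with the combination than in DMSO, by -0.23 (adjusted p = 0.0119).

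**Figure D3:**
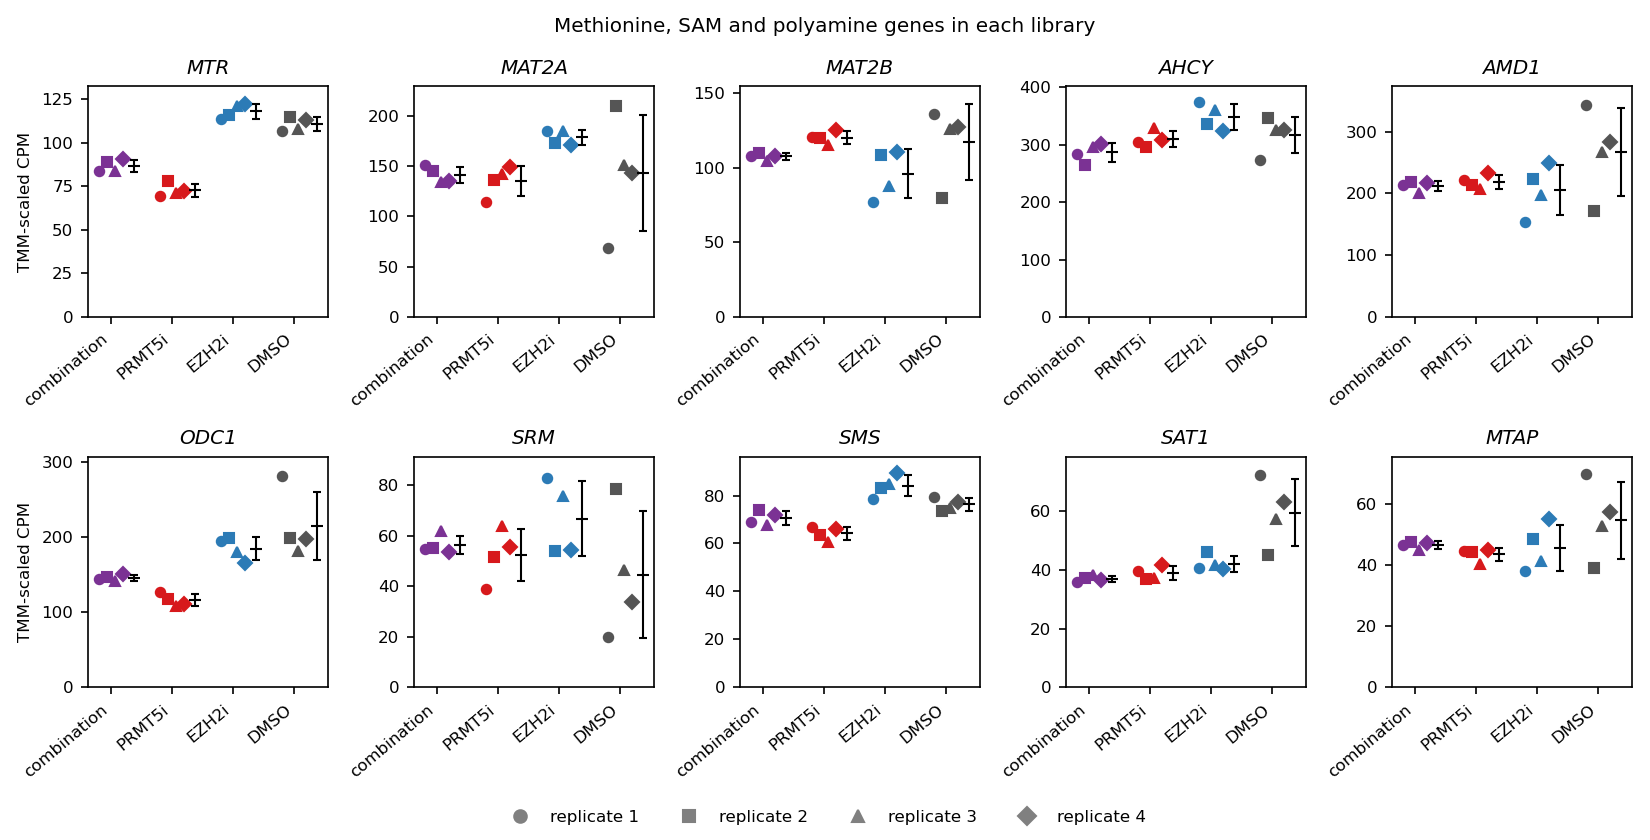
TMM-scaled CPM (vertical axes from 0) of the 10 genes in each of the 16 libraries; the symbol gives the replicate number, and the bars give the mean and SD of 4 libraries. MTR and ODC1 are lower in the combination and PRMT5i libraries than in all DMSO libraries, while SRM and MAT2A spread in DMSO over 20.02 to 78.6 and 68.6 to 209 CPM.

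ODC1, ornithine decarboxylase, makes putrescine and is the rate-limiting, short-lived entry enzyme of polyamine synthesis. It lies on chromosome 2 (10439968 to 10448504, minus strand) and is a textbook target of the transcription factor MYC, which binds the letters CACGTG. Both strands of 17 promoter windows of the 10 genes (250 bases before to 50 after a RefSeq start, GRCh38.p14) were searched for these letters, which read the same on either strand. They were found in 2 windows, a downstream start of ODC1 and SRM, where 7.3% of all 35116 windows and 8.8% of 27305 genes held them. These windows are shown because they are the only ones of the set with the motif (capitals), and the minus-strand sequence is given 5′ to 3′.
ODC1 chr2:10447963-10448262: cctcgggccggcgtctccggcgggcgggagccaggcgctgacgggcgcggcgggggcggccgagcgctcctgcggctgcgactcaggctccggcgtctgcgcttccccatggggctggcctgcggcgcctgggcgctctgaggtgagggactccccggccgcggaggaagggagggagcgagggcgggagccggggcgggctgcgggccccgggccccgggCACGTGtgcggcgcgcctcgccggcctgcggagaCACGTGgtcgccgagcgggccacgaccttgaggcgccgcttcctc
SRM chr1:11059969-11060268: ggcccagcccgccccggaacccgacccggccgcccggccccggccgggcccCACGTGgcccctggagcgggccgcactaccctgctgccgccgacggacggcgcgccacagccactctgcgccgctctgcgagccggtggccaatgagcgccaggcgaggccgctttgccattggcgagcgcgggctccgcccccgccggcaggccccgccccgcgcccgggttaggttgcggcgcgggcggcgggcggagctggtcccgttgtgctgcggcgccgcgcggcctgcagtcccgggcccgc
A match describes letters in a window and says nothing about whether a factor binds there in these cells.

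ODC1 showed the largest change of the 10 genes with PRMT5i. It had 144, 147, 141 and 150.4 CPM in combination, 127, 118, 109 and 111 in PRMT5i, 195, 198, 180.3 and 166 in EZH2i, and 281, 198, 182 and 198 in DMSO libraries. The PRMT5i libraries were the lowest, the combination libraries lay above them with no overlap, and both groups were below all EZH2i and DMSO libraries. Against DMSO the log2 fold change was -0.89 (SE 0.11, adjusted p = 1.13e-05) with PRMT5i, a level of 0.540 times that in DMSO, and -0.56 (SE 0.11, adjusted p = 0.000975) with the combination. It was -0.22 (SE 0.11, adjusted p = 0.220) with EZH2i. DMSO replicate 1 was the highest library, and over 27 alternatives, which include leaving it out, the change with PRMT5i stayed between -0.96 and -0.72 and that with the combination between -0.63 and -0.41, all past the threshold. Within replicates 1 and 2, ODC1 averaged 122 CPM with PRMT5i against 239.8 CPM in DMSO, and within replicates 3 and 4 it averaged 109.7 CPM against 189.9 CPM.

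The combination held ODC1 above the level with PRMT5i alone in 4 of 4 libraries, by 0.33 (SE 0.11), with an adjusted p of 0.122 in the fit of all 4 groups. This change passed under 5 of 27 alternatives, and the adjusted p reached 0.315 in the others. It passed when only those groups were fitted (adjusted p = 0.00454), with total-count scaling (0.0161) and without DMSO replicate 1 (0.0116). It also passed with limma voom, run with sample quality weights (adjusted p = 0.00258). Against EZH2i the combination was lower by -0.34 (SE 0.11, adjusted p = 0.0309), and this call was lost with GC correction (adjusted p = 0.0598), with no filter (0.0580) and without any 1 of the 4 combination libraries or EZH2i replicates 1, 2 and 3 (0.0542 to 0.0846). For the interaction, the change with EZH2i measured under PRMT5i was set against the change it gave alone, and the difference was 0.55 (SE 0.16, adjusted p = 0.260) for ODC1. By edgeR 0 of the 10 genes passed for the interaction, where 0.290% of all tested genes did, 0.254% with a positive and 0.0362% with a negative value, and 2 of 10 had an unadjusted p below 0.05, ODC1 and SAT1. DESeq2 also called 0 and limma voom called these 2.

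AMD1 decarboxylates SAM and so commits it to polyamines (chromosome 6, 110874770 to 110895713, plus strand). In mammalian cells its translation falls when polyamines are abundant, through a short upstream open reading frame, which is shown with its start and stop codons in capitals (chr6:110874796-110874816, GRCh38, plus strand). It has 6 codons before the stop, and RNA counts do not report on translation.
AMD1 upstream open reading frame: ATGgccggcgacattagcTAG
AMD1 had 213, 219, 201 and 217 CPM in combination, 222, 213, 206 and 232 in PRMT5i, 154, 223, 197 and 249.5 in EZH2i, and 343, 172, 268 and 283 in DMSO libraries. Of the DMSO libraries 3 were above every other library and replicate 2 was below all combination and PRMT5i libraries. The changes against DMSO were -0.29 (SE 0.16, adjusted p = 0.185) with PRMT5i, -0.33 (SE 0.16, adjusted p = 0.128) with the combination and -0.37 (SE 0.16, adjusted p = 0.156) with EZH2i. Without DMSO replicate 2 all 3 passed, at -0.45 (adjusted p = 0.00935), -0.49 (0.00527) and -0.54 (0.00694), and all 3 also passed with GC correction, given below. In the same order the AMD1 changes passed under 4, 5 and 5 of 27 alternatives.

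SRM and SMS transfer the propylamine group, SRM to putrescine to make spermidine and SMS to spermidine to make spermine. SRM (chromosome 1, 11054584 to 11060024, minus strand) had 55.0, 55.3, 61.8 and 53.5 CPM in combination, 38.9, 51.8, 63.8 and 55.5 in PRMT5i, 83.1, 53.9, 75.8 and 54.3 in EZH2i, and 20.02, 78.6, 46.4 and 33.6 in DMSO libraries. All groups overlapped and no comparison passed. Its largest change was 0.58 (SE 0.29, adjusted p = 0.203) with EZH2i against DMSO, and without DMSO replicate 2 the changes with EZH2i, the combination and PRMT5i were 1.00 (adjusted p = 0.00643), 0.75 (0.0149) and 0.65 (0.0317). In that order the SRM changes passed under 3, 3 and 1 of 27 alternatives. Leaving out replicate 2 alone keeps DMSO replicate 1, whose GC trend is opposite (-0.22 against 0.26 in replicate 2). With both left out, the SRM changes with the combination and PRMT5i did not pass. SMS (chromosome X, 21940573 to 21994835, plus strand) varied less within groups. It had 69.1, 74.1, 67.6 and 72.0 CPM in combination, 66.8, 63.4, 60.7 and 66.2 in PRMT5i, 78.7, 83.3, 84.8 and 89.4 in EZH2i, and 79.4, 73.4, 74.9 and 77.4 in DMSO libraries. All PRMT5i libraries were below all libraries of the other 3 groups. SMS was lower with PRMT5i than in DMSO by -0.25 (SE 0.07, adjusted p = 0.00841) and with the combination than with EZH2i by -0.25 (SE 0.07, adjusted p = 0.0101), calls lost only with no filter on low counts (adjusted p = 0.0809 and 0.0980).

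SAT1 acetylates spermidine and spermine, which marks them for export or oxidation, and its synthesis is induced by polyamines. It lies on chromosome X (23783173 to 23786226, plus strand). It had 35.8, 37.0, 38.3 and 36.4 CPM in combination, 39.6, 37.0, 37.2 and 41.7 in PRMT5i, 40.5, 45.9, 41.5 and 40.1 in EZH2i, and 72.2, 45.0, 57.1 and 62.9 in DMSO libraries. All 3 inhibitor groups lay within 35.8 to 45.9 CPM, and DMSO replicate 2 (45.0) was the only DMSO library that reached this range. SAT1 was the only gene of the set called in all 3 comparisons against DMSO, with -0.69 (SE 0.11, adjusted p = 0.000162) in the combination, -0.61 (SE 0.11, adjusted p = 0.000411) with PRMT5i and -0.50 (SE 0.11, adjusted p = 0.0140) with EZH2i. The last of these was lost when only those groups were fitted (adjusted p = 0.164) and without DMSO replicate 4 (0.0518). The combination differed from PRMT5i by -0.08 (SE 0.11, adjusted p = 0.840). The interaction was 0.42 (SE 0.16, adjusted p = 0.448), so a difference in the effect of EZH2i with and without PRMT5i was not shown by this test.

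MTAP cleaves MTA and starts its salvage to methionine. It lies on chromosome 9 (21802543 to 21937651, plus strand), next to the CDKN2A and CDKN2B genes, with which it is often lost in cancers. MTAP was expressed in all 16 libraries, with 46.6, 47.7, 45.0 and 47.3 CPM in combination, 44.6, 44.3, 40.4 and 45.1 in PRMT5i, 38.0, 48.5, 41.3 and 55.0 in EZH2i, and 69.7, 38.9, 52.8 and 57.3 in DMSO libraries. Its lowest and highest libraries were EZH2i replicate 1 and DMSO replicate 1, and all groups overlapped with DMSO. The changes against DMSO were -0.33 (SE 0.14, adjusted p = 0.0845) with PRMT5i, -0.23 (SE 0.14, adjusted p = 0.222) with the combination and -0.26 (SE 0.14, adjusted p = 0.248) with EZH2i. Without DMSO replicate 2 they were -0.46 (adjusted p = 0.00525), -0.36 (0.0206) and -0.39 (0.0225). In the same order the MTAP changes passed under 5, 4 and 2 of 27 alternatives.

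CDKN2A, which lies 30.1 kb from MTAP, CDKN2B, at 65.3 kb, and on the other side MIR31HG and IFNE, at 243 and 320.2 kb, had 0 counts in all 16 libraries. With 0 counts a library allows up to 3, or 0.0578 to 0.0935 CPM, an interval that covers counting error only. DMRTA1, at 509 kb, reached 7 counts at most, and CDKN2B-AS1, at 57.1 kb, had 0.110 to 0.832 CPM. KLHL9, at 467 kb on the side of MIR31HG, was expressed at 22.6 ± 1.68 CPM in combination, 23.4 ± 0.797 in PRMT5i, 20.2 ± 2.34 in EZH2i and 23.0 ± 2.70 in DMSO cells. CDKN2B-AS1 was called lower with the combination than in DMSO (-1.09, SE 0.34, adjusted p = 0.0209) and than with EZH2i (-1.24, SE 0.34, adjusted p = 0.0122), at levels below 1 CPM. The call against DMSO passed under 22 of 27 alternatives, and the adjusted p reached 0.0819 in the others. It was lost, among other settings, without combination replicate 4, DMSO replicate 1 or DMSO replicate 4. Lost and silent genes cannot be told apart in these counts. Reads shared with pseudogenes were few: the annotated copies of AHCY, AMD1, SRM, ODC1 and MTAP held at most 0.336% of the counts of their parent gene in any library.

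The spread of several genes within a group followed the GC trend of the library. AMD1 (38.0% GC in its principal transcript), MTAP (39.3%) and MAT2B (40.1%) deviated from their group means in the direction opposite to the trend, with r of -0.97, -0.97 and -0.93 over the 16 libraries. SRM (63.7%) and AHCY (55.4%) deviated along with it, with r of 0.85 and 0.82. SMS (46.5%) had -0.81, SAT1 (43.8%) -0.70 and MAT2A (45.6%) 0.66, while ODC1 (51.2%) had -0.26 and MTR (45.0%) -0.06. These are descriptions of deviations from group means, over libraries that also differ in depth. The trend itself was estimated from all tested genes of the same library.

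A correction of each library for its GC trend, chosen after seeing the data, brought the DMSO libraries of MTAP to 59.6, 47.5, 51.0 and 53.3 CPM and those of AMD1 to 285, 219.6, 256 and 260.1 CPM. The SD in DMSO was 5.10 CPM with and 12.7 CPM without the correction for MTAP, and 26.8 and 70.8 CPM for AMD1. The correction did not narrow the DMSO libraries of MAT2A (SD 61.0 CPM with and 57.8 CPM without) or ODC1 (55.4 and 44.9 CPM). With it MTAP was lower with PRMT5i than in DMSO by -0.30 (adjusted p = 0.00116) and with the combination by -0.25 (adjusted p = 0.00494). AMD1 was then lower by -0.25 (adjusted p = 0.00496) with PRMT5i, -0.34 (adjusted p = 0.000467) with the combination and -0.24 (adjusted p = 0.0180) with EZH2i. With this correction the number of genes called against DMSO was 6 with PRMT5i, 7 with the combination and 2 with EZH2i. Over all tested genes the calls with the correction were 7358 with PRMT5i, 7650 with the combination and 3192 with EZH2i, also above those without it.

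**Figure D4:**
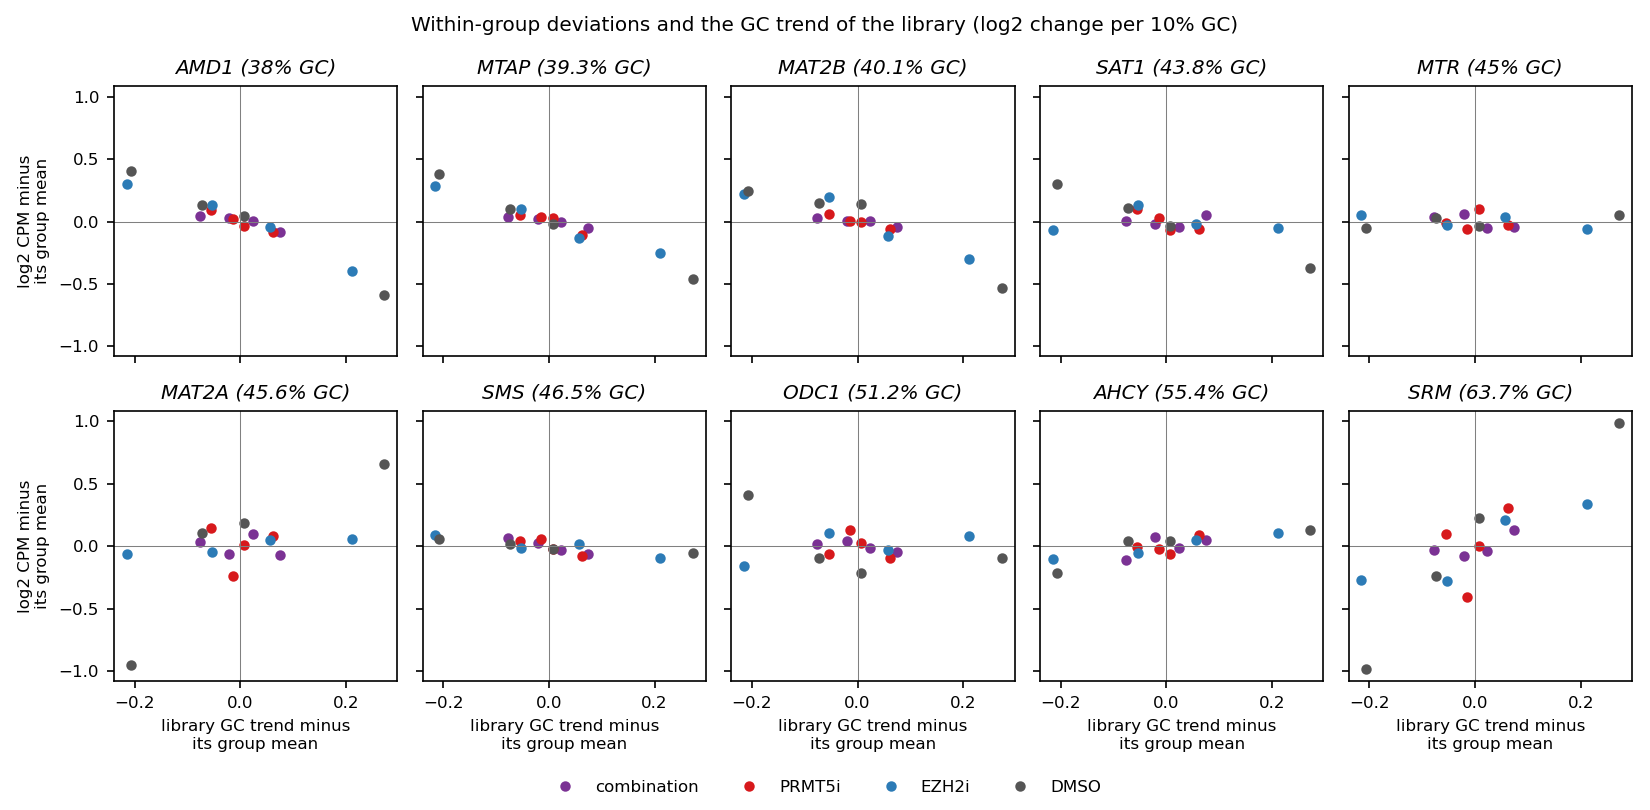
Deviation of each library's log2 CPM from its group mean (vertical axes) against the deviation of its GC trend, in log2 units per 10% GC, from the group mean (horizontal axes), for the 10 genes in order of GC content. AMD1, MTAP and MAT2B descend, SRM and AHCY ascend, and MTR stays flat (r = -0.06).

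The other genes of these pathways were described through 7 lists with 67 genes, of which 59 were tested. With PRMT5i against DMSO 9 were higher and 23 lower, and 27 did not pass, where 17.1% of all tested genes were called higher and 18.3% lower. With the combination against DMSO 4 were higher and 23 lower, where 17.6% of all tested genes were called higher and 18.5% lower. With EZH2i 3 were higher and 6 lower, where 4.11% were called higher and 3.49% lower. The counts for single lists that follow are to be read against these shares. Scaling by total counts, which moved the median of all tested genes to 0.13 for the combination against DMSO, gave 12 higher and 18 lower there, and 4 higher and 2 lower with EZH2i. The median log2 fold change of the 59 genes was -0.10 with PRMT5i, -0.15 with the combination and -0.06 with EZH2i, beside the medians of all tested genes given above. Without DMSO replicates 1 and 2 the counts were 8 higher and 23 lower with PRMT5i, and 5 higher and 25 lower with the combination. With EZH2i the higher genes included TYMS and OAZ2, and the lower ones were CTH, MTHFD2, MTRR, OAT, AGMAT and SLC43A1. Leaving out DMSO replicate 2 gave an EZH2i count of 22, and leaving out DMSO replicate 4 gave 1. It was also 3 without EZH2i replicate 1, EZH2i replicate 3 or DMSO replicate 1, and 5 without EZH2i replicate 4 or DMSO replicate 3.

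With PRMT5i against DMSO the 2 largest changes among the 59 genes were those of CBS and CTH, of transsulfuration, which turns homocysteine into cysteine. CBS, its entry enzyme, averaged 10.8 ± 4.01 CPM in combination, 7.003 ± 1.03 in PRMT5i, 52.0 ± 7.57 in EZH2i and 60.1 ± 6.68 in DMSO cells (SD, n = 4 each), a log2 fold change of -3.10 (SE 0.22, adjusted p = 2.67e-08) with PRMT5i against DMSO. The table holds 2 rows named CBS, which can share reads, and the second held at most 3.47% of the counts of both. CTH, which releases cysteine, averaged 8.69 ± 1.49 CPM in combination, 5.57 ± 0.69 in PRMT5i, 18.8 ± 1.40 in EZH2i and 25.8 ± 0.91 in DMSO cells. CTH was lower with PRMT5i than in DMSO by -2.21 (SE 0.12, adjusted p = 2.13e-09) and higher with the combination than with PRMT5i by 0.64 (SE 0.12, adjusted p = 0.00537). Of 4 tested genes on this list 2 were lower and GCLM, of glutathione synthesis, was higher with PRMT5i (0.57, SE 0.20, adjusted p = 0.0371), a call lost without PRMT5i replicates 1, 2 or 4 or DMSO replicates 2, 3 or 4. The GCLM call was also lost when only PRMT5i and DMSO were fitted (adjusted p = 0.0613) and without DMSO replicates 1 and 2 together (0.0524).

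In the folate list, whose enzymes supply the methyl group that MTR uses, 9 of 14 tested genes were lower and none higher with PRMT5i against DMSO, and 7 were lower with the combination. SHMT2, MTHFD2 and MTHFD1L, which are mitochondrial enzymes, had the smallest p. SHMT2 averaged 173 ± 26.0 CPM in combination, 161 ± 8.22 in PRMT5i, 330.3 ± 37.1 in EZH2i and 374 ± 39.3 in DMSO cells, and changed by -1.22 (SE 0.11, adjusted p = 4e-07) with PRMT5i against DMSO. MTHFD2 averaged 279 ± 52.5 CPM in combination, 259.8 ± 9.65 in PRMT5i, 473 ± 48.5 in EZH2i and 724 ± 182 in DMSO cells; the opposite-strand gene SLC4A5 shares 27.2% of its exon bases. Of the transporters that carry methionine and other neutral amino acids 6 of 8 were lower with PRMT5i, among them SLC38A1 (-1.27, SE 0.10), SLC3A2 (-1.51, SE 0.13) and SLC1A5 (-1.44, SE 0.18), while SLC43A2 and SLC7A8 were higher. Other genes overlap 23.4% of the exon bases of SLC1A5, so its reads may not all be its own. SLC38A1 averaged 158 ± 14.2 CPM in combination against 89.5 ± 7.71 CPM in PRMT5i cells, a difference of 0.81 (SE 0.10, adjusted p = 0.000251).

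Genes that regulate or degrade polyamines moved in both directions with PRMT5i against DMSO, with 3 higher and 2 lower of 13 tested. AZIN2, an inhibitor of the antizymes that degrade ODC1, was higher (2.22 ± 0.355 CPM against 0.632 ± 0.287 CPM in DMSO; 1.77, SE 0.25, adjusted p = 2.99e-05), as were SAT2, a relative of SAT1 (0.58, SE 0.09), and the oxidase PAOX (0.74, SE 0.19). ARG2, a mitochondrial arginase that yields ornithine, was lower (1.29 ± 0.307 CPM against 3.10 ± 0.404 CPM in DMSO; -1.26, SE 0.22, adjusted p = 0.000223), although the opposite-strand gene VTI1B shares 37.4% of its exon bases. OAZ1, the main antizyme, was also lower (849.9 ± 28.2 CPM against 1110.4 ± 139.6 CPM in DMSO; -0.39, SE 0.11, adjusted p = 0.00883). None of the 4 hypusination genes, which use spermidine to modify the translation factor EIF5A, passed in any of the 6 comparisons by edgeR. In methionine salvage downstream of MTAP, GOT1 was lower (-1.07, SE 0.10), MRI1 lower (-0.39, SE 0.09) and ADI1 higher (0.46, SE 0.07) with PRMT5i, 3 of 6 tested; another gene overlaps 19.3% of the exon bases of GOT1. In the methionine cycle list 2 of 10 tested genes were higher, METTL16 and the adenosine kinase ADK (0.43, SE 0.11; adjusted p = 0.0501 without DMSO replicates 1 and 2), and 2 lower, the SAM-dependent methyltransferase PEMT (-0.58, SE 0.12) and AHCYL1, a relative of AHCY (-0.52, SE 0.13). The MYC family list had 2 of 6 lower, MYCL (-0.54, SE 0.11) and MXI1 (-0.52, SE 0.12). MYC itself, named after its values were seen, averaged 435 ± 18.1 CPM in PRMT5i and 553 ± 172 CPM in DMSO cells (-0.35, SE 0.17, adjusted p = 0.125).

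**Figure D5:**
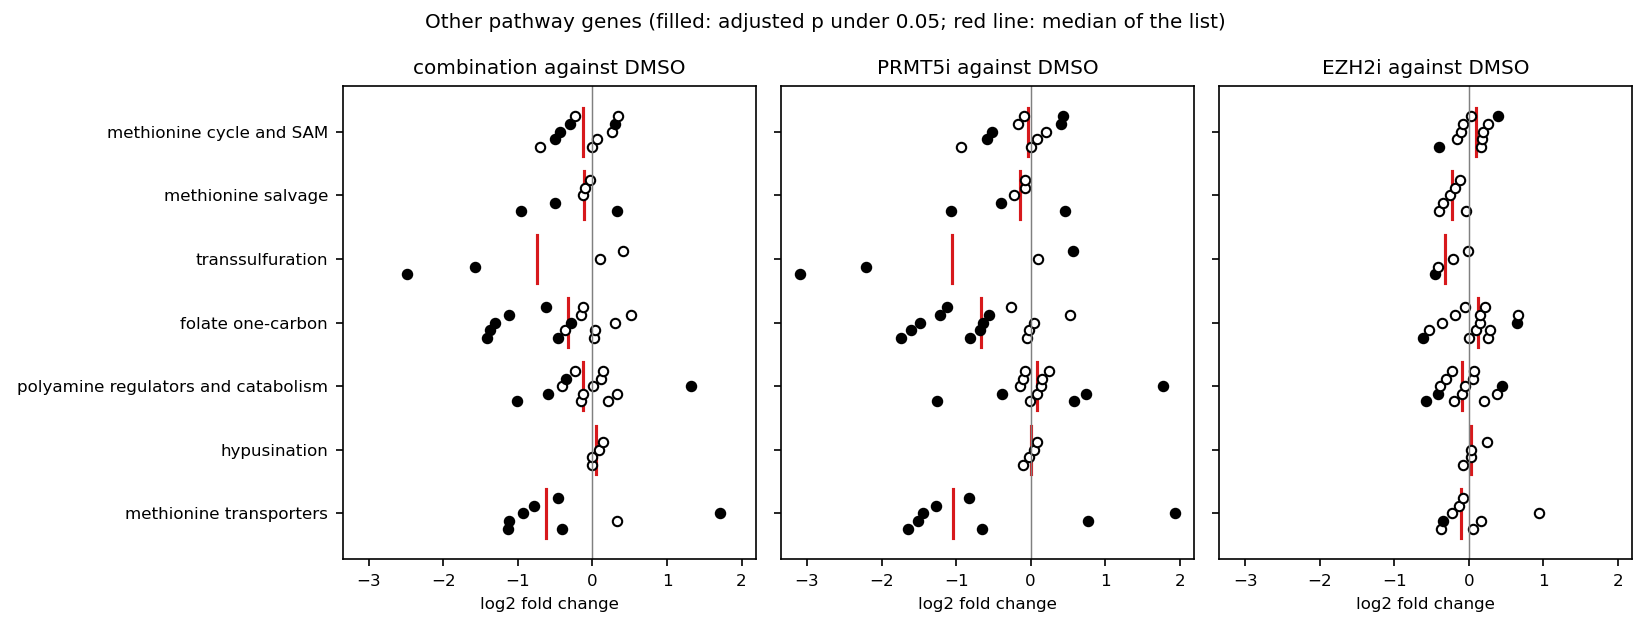
Log2 fold changes (horizontal axes) of the tested genes of the 7 lists against DMSO in the combination, PRMT5i and EZH2i; filled points passed an adjusted p of 0.05 and the red line marks the median of the list. CBS and CTH lie farthest to the left in both panels with PRMT5 inhibited, and the hypusination genes lie near 0.

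Between the combination and PRMT5i 5 of the 59 pathway genes were higher and 1 was lower, SAT2 (-0.44, SE 0.09, adjusted p = 0.00948), and the count of 6 was 3 without PRMT5i replicate 3 or 4. Of all tested genes 2.91% were called higher there and 1.24% lower. Between the combination and EZH2i 6 of the 59 were higher and 24 lower (10 and 23 with total-count scaling), where 13.4% of all tested genes were called higher and 14.6% lower. CBS (-2.28, SE 0.21), CTH (-1.12, SE 0.11) and MTHFD1L (-1.31, SE 0.16) were among the lower. Of the 59 genes CTH alone passed for the interaction, at 1.09 (SE 0.16, adjusted p = 0.00398), where 0.290% of all tested genes did.

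The tested genes whose log2 CPM was most like each member over the 16 libraries were found by Pearson correlation, as a description with no test. ODC1 was closest to DNAJC9, PTTG1 and TXNDC5 (r = 0.97 each), and MTR to TRIP13, OXCT1 and ORC1 (r = 0.98 each). SAT1 was closest to ANAPC16 (r = 0.98) and SMS to CHRNA5 (r = 0.97). The genes with the strongest GC dependence had neighbours at r of 0.99, FEM1B for AMD1, RRP15 for MTAP, C5orf24 for MAT2B and FBRSL1 for SRM. AHCY (ARL6IP4, r = 0.95) and MAT2A (RANGRF, r = 0.98) completed the set. Among the 10 genes themselves SMS and MTR had r of 0.91 over the 16 libraries but 0.27 after group means were removed, and MTAP and AMD1 had 0.95 and 0.97. AMD1 and SRM had -0.91 and -0.88. These libraries share the 4 treatments and the GC trend, so the values describe this set of libraries.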

How the data were processed

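RNA of 16 MOLM-13 libraries was sequenced in pairs on an Illumina instrument. The authors deposited 1 table of expected counts per gene, and per the submitters' processing notes STAR 2.5.3, RSEM (version not given) and GRCh38.p7 were used; no source says whether counting used strand. Of the values 12.0% were not whole, and all were rounded to whole numbers. Genes with low counts were removed with filterByExpr, which left 16555, and libraries were scaled by TMM. The test was the quasi-likelihood F test of edgeR 4.0.16 (R 4.3.3) with 4 group means and Benjamini-Hochberg adjustment over all tested genes, at a threshold of 0.05. The 6 comparisons were PRMT5i, the combination and EZH2i against DMSO, the combination against each inhibitor, and the interaction. The standard error is the log2 fold change divided by the root of F.

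Alternatives used DESeq2 1.42.0, limma 3.58.1, other scalings and filters, leaving out libraries, a replicate block and a GC correction. Wherever limma voom is named, it was run with sample quality weights, which give less weight to more variable libraries. The GC correction removed a lowess trend (span 0.3) of each library on the GC content of the principal transcript, known for 99.2% of tested genes. No pair of libraries within a group was as alike as sampling noise alone would make it, with a chi-square per degree of freedom of at least 8.50. The highest values, 202 to 271, were those of DMSO replicate 1 with the other DMSO libraries. The code was tested on simulated data. Pathway genes were named as the up to 3 of each list with the smallest p in each direction. The members and lists were chosen with earlier results of these data known. Promoter windows came from RefSeq (GRCh38.p14), and UTR sites from GENCODE release 29.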

Additional observations from a re-analysis of the deposited data

Results flagged for a closer look

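Over the 40 combinations of gene and group, the gap of the highest or lowest of 4 libraries to its nearest neighbour, as a share of the group's range, was above Dixon's critical value in 3, where chance gives about 1 in 20. ODC1 was highest in DMSO replicate 1, at 281 CPM. MAT2B was lowest in DMSO replicate 2, at 79.7 CPM. MTAP was lowest in PRMT5i replicate 3, at 40.4 CPM.

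The effect of EZH2i on CTH differed with and without PRMT5i. The interaction was 1.09 (SE 0.16, adjusted p = 0.00398 by edgeR), and it passed under all 26 alternatives, at 0.98 to 1.18. CTH was higher with the combination than with PRMT5i in 4 of 4 libraries (0.64) and was lower with EZH2i than in DMSO (-0.46, adjusted p = 0.0208). The EZH2i call passed under 21 of 27 alternatives and was lost with total counts (adjusted p = 0.0618), with only the groups compared (0.0831), and without EZH2i replicate 1 (0.0541) or 4 (0.0507) or DMSO replicate 3 (0.0543) or 4 (0.0573).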

How the results depend on the processing

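The calls of ODC1, MTR and SAT1 with PRMT5i and with the combination against DMSO, and of MTR with the combination against EZH2i, held under all 27 alternatives. No called change reversed. The number of the 10 genes called moved as follows, and the cause was not tested. Counts under single settings are listed where they moved by more than a factor of 1.5, or to or from 0. With the combination against DMSO (3) it was 8 with limma voom, 7 with GC correction, 8 with GC correction and replicate block, 5 without DMSO replicates 1 and 2, and 3 to 7 with 1 library left out. With EZH2i against DMSO (1) it was 0 with only the groups compared, 5 with limma voom, 2 with GC correction, 2 with GC correction and replicate block, 4 without DMSO replicates 1 and 2, and 0 to 6 with 1 library left out. With the combination against PRMT5i (1) it was 2 with total counts, only the groups compared, limma voom or DMSO replicates 1 and 2 left out, 0 with no filter, and 0 to 2 with 1 library left out. With the combination against EZH2i (4) it was 1 with no filter and 2 to 5 with 1 library left out. For the interaction (0) it was 2 with limma voom and 0 with any library left out. With PRMT5i against DMSO (4) it was 4 to 7 with 1 library left out. There MTAP and AMD1 also passed with limma voom, with GC correction, and with GC correction and replicate block. MTAP also passed without DMSO replicates 1 and 2, and SMS was lost with no filter.

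Over all genes, the 1259 calls with EZH2i against DMSO were 2089 with DESeq2, 135 with only the groups compared, 4474 with limma voom, 3192 with GC correction, 3533 with GC correction and replicate block, 2418 without DMSO replicates 1 and 2, and 499 to 4591 with 1 library left out. The 688 with the combination against PRMT5i were 1064, 2099, 2617, 1287, 1537, 1358 and 263 to 1011 in the same order. With the combination against DMSO the 5990 calls were 8408 with limma voom, 7650 with GC correction and 7866 with GC correction and replicate block. They were 5991 without DMSO replicates 1 and 2, and 5122 to 7110 with 1 library left out. The 48 for the interaction were 112 with DESeq2, 463 with limma voom, 116 with GC correction, 179 with GC correction and replicate block, 83 without DMSO replicates 1 and 2, and 28 to 124 with 1 library left out. With PRMT5i against DMSO the 5847 calls were 8388 with limma voom, 7358 with GC correction and 7552 with GC correction and replicate block. They were 5765 without DMSO replicates 1 and 2, 5111 with no filter, and 4898 to 6853 with 1 library left out. The 4633 with the combination against EZH2i were 3964 with no filter and 3714 to 5565 with 1 library left out.

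Libraries with the same replicate number did not pair: their deviations correlated at -0.27 to 0.24 over 24 pairs, 9 of them above 0.1. A replicate block left the counts at 4 with PRMT5i, 3 with the combination and 1 with EZH2i against DMSO, 1 with the combination against PRMT5i, 4 against EZH2i and 0 for the interaction. The spread of the DMSO libraries limits what can be said of MAT2A, SRM, AMD1, MTAP and MAT2B.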
